A study of Mus musculus with 7 samples.

Results

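The genes described here encode the matrix metalloproteinases (Mmp), the secreted Adamts proteases, the Adamts-like proteins (Adamtsl) and the tissue inhibitors of metalloproteinases (Timp). They were chosen by name alone, as every row of the deposited gene table whose symbol is Mmp, Timp, Adamts or Adamtsl followed by a number and at most 1 letter. This gave 51 of 29955 gene rows: 23 Mmp, 19 Adamts, 5 Adamtsl and 4 Timp genes.

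RNA sequencing read their transcripts in C57BL/6 mouse embryonic fibroblasts grown in medium with fetal calf serum. The groups were p53ko Mdm2 C462A ki (p53 knockout with a knock-in of the C462A substitution in Mdm2, called Mdm2 C462A here, 2 libraries), p53Mdm2 ko (knockout of both genes, called p53/Mdm2 KO, 2 libraries) and p53 ko (called p53 KO, 3 libraries). All groups lacked p53, so no comparison has cells with p53. Mdm2 is the ubiquitin ligase that limits p53, and the substitution lies in the RING domain that this activity needs. The series title asks what Mdm2 does independently of p53, through Polycomb repression. The labels give no embryo, culture or passage for a replicate and do not describe the alleles, so p-values measure the spread between these libraries, which may be technical.

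Mmp and Adamts enzymes are zinc-dependent proteases that cut collagens, proteoglycans, elastin and growth factor carriers outside the cell. Most are made as inactive precursors and need a further protease to become active, so a transcript level is not an activity. Timp proteins occupy the active site of these enzymes, and Timp3 also inhibits several Adamts and Adam proteases. Adamtsl proteins share the accessory domains of the Adamts family but have no protease domain, and several bind microfibrils. Fibroblasts are a main source of Mmp2, Mmp14 and the Timp proteins, whereas Mmp8, Mmp9 and Mmp12 are best known from neutrophils and macrophages.

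Levels are given as normalized reads, recovered from the deposited log2-like values, and every difference is on that deposited scale, which understates changes of genes with few reads. Library totals ran from 28.5 to 41.5 M recovered reads, M standing for mega. A count of 0 allows up to 3 reads, or 2.65 to 3.86 normalized reads depending on the library, for counting error only. Of the 51 members, 43 had a mean of at least 10 normalized reads over the 7 libraries and were tested: 17 of 23 Mmp, 18 of 19 Adamts, 4 of 5 Adamtsl and 4 of 4 Timp genes. Of the other 8, Mmp7 and Mmp20 had no read in any library, and Mmp1a, Mmp1b and Mmp21 stayed between 0 and 3.71 normalized reads. Mmp1a and Mmp1b are close copies, and how reads shared by them were counted is not stated, so their split is uncertain. Mmp27, Adamts19 and Adamtsl2 ranged from 0 to 16.8. Of the 7 fibroblast markers, Col1a1 was high in every library (187977 to 689145 normalized reads). In p53 KO replicate 1, Col1a2 had 3456 and Thy1 99.1, against at least 175050.4 and 6592 in the other 6 libraries. In that same library Col3a1 (166679) and Vim (155416) were at their highest, and Pdgfra (6863) and Pdgfrb (16538) lay within the range of the others. Of the 5 endothelial markers, Pecam1 and Cdh5 had at most 6.01 and 12.1, Tek and Tie1 at most 149 and 27.0, and Kdr from 22.7 in p53 KO replicate 1 to 994 in p53/Mdm2 KO replicate 2. Epithelial markers together had 218 and 730.3 in Mdm2 C462A, 1261 and 65.7 in p53/Mdm2 KO, and 595, 316 and 248 in p53 KO.

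No member passed the adjusted threshold in any comparison. The test was limma fitted to all 16900 genes tested, with Benjamini-Hochberg adjustment over all of them and a threshold of 0.05. No other gene passed it in any comparison either (0% of genes in both directions), and voom on the recovered reads called 0 genes as well. At an unadjusted p under 0.05, limma gave 7 of 43 members (16.3%) for Mdm2 C462A against p53 KO, where 10.4% of all genes tested did so. Of these 4 were higher (9.3%, against 4.98% of all genes) and 3 lower (6.98%, against 5.44%). The count was 3 without Mdm2 C462A replicate 2, 11 without p53 KO replicate 1 and 4 without p53 KO replicate 3. For p53/Mdm2 KO against p53 KO limma gave 3 of 43 (6.98%, against 3% of all genes), 1 higher (against 1.51%) and 2 lower (against 1.49%). The count was 1 without p53/Mdm2 KO replicate 2, 7 without p53 KO replicate 1 and 1 without p53 KO replicate 3. For Mdm2 C462A against p53/Mdm2 KO it gave 5 of 43 (11.6%, against 2.98%), 4 higher (9.3%, against 1.2%) and 1 lower (2.33%, against 1.78%). The count was 1 without Mdm2 C462A replicate 2, 0 without p53/Mdm2 KO replicate 2 and 3 without p53 KO replicate 3. In each comparison the number of all genes at that threshold also changed when 1 library was left out. The changes in the member counts are therefore not particular to the members. The values below are descriptions of these libraries, and a direction is given only as higher or lower in these samples. Both comparisons with p53 KO use the same 3 p53 KO libraries.

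**Figure D1:**
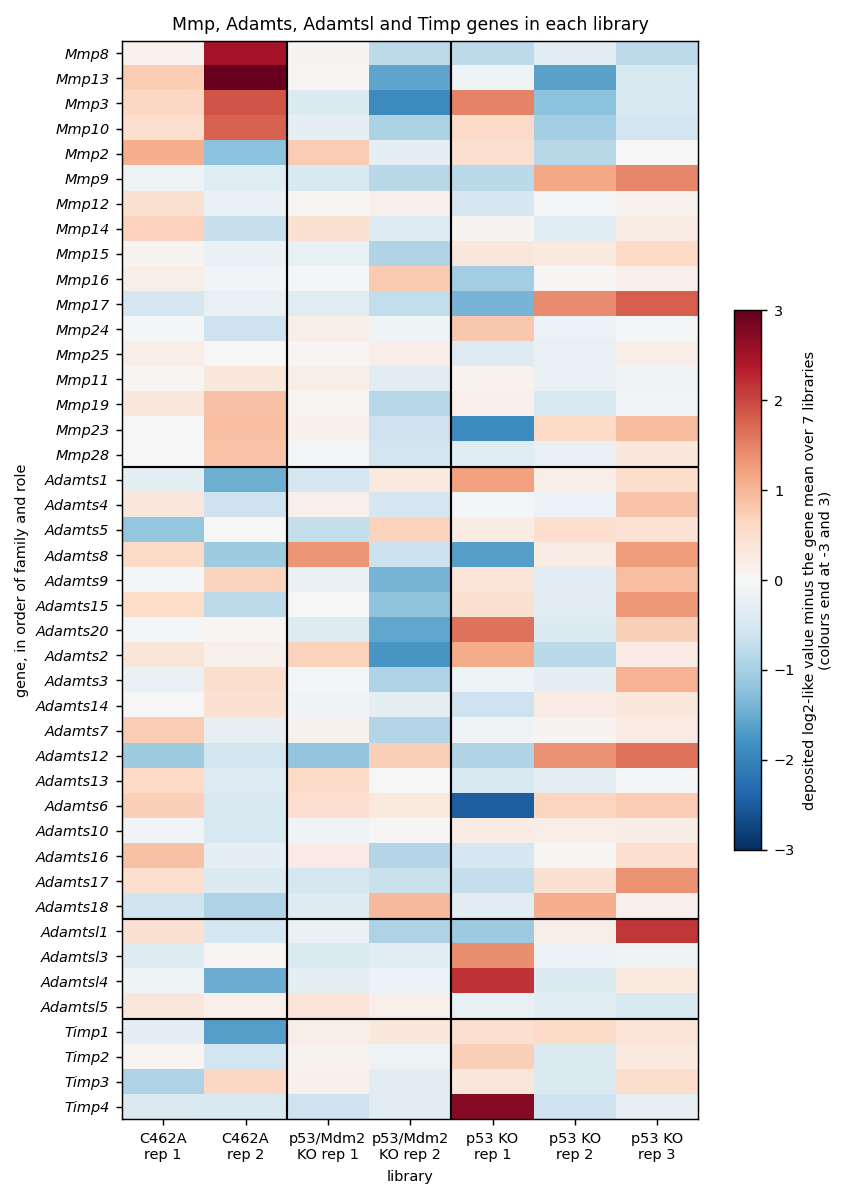
Deposited log2-like value minus the gene's mean over the 7 libraries, for the 43 members tested (rows, by family and role) in each library (columns). Mmp8, Mmp13, Mmp3 and Mmp10 are above their gene means in Mdm2 C462A replicate 2, while Adamts6 is at its lowest and Timp4 and Adamtsl4 are at their highest in p53 KO replicate 1.

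Among the inhibitors, Timp1 was lower in Mdm2 C462A and the other 3 did not separate the groups. Timp1, a secreted inhibitor induced by serum and cytokines, was read at 6007 and 2312 normalized reads in Mdm2 C462A, at 8524 and 9176 in p53/Mdm2 KO, and at 10264, 10923 and 9557 in p53 KO; values here and below are in the order of the replicate numbers. Both Mdm2 C462A libraries lay below all 5 others, and both p53/Mdm2 KO libraries also lay below the 3 p53 KO libraries, by less. Mean ± SD was 4159 ± 2613 for the 2 Mdm2 C462A libraries, 8849.9 ± 461 for the 2 p53/Mdm2 KO libraries and 10248 ± 683 for the 3 p53 KO libraries. In bulk samples such as these, fewer cells of a type and less RNA per cell cannot be told apart.

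The Timp1 difference was -1.45 for Mdm2 C462A against p53 KO (SE 0.379, unadjusted p = 0.00759, limma adjusted p = 0.437). Mdm2 C462A against p53/Mdm2 KO gave -1.24 (SE 0.415, limma adjusted p = 1), and p53/Mdm2 KO against p53 KO gave -0.21 (SE 0.379, limma adjusted p = 1). Mdm2 C462A replicate 2 set much of the size: without it the first difference was -0.77 (limma adjusted p = 0.999) and the second -0.56 (limma adjusted p = 1). 

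Timp2, which inhibits Mmp2 and at the same time tethers its precursor to Mmp14 for activation, had 61872 and 39692 normalized reads in Mdm2 C462A, 64026 and 53559 in p53/Mdm2 KO, and 97136, 43688 and 72437 in p53 KO. The groups overlapped fully, since p53 KO held the highest value and its replicate 2 lay below both p53/Mdm2 KO libraries. Differences from p53 KO were -0.45 (SE 0.402, limma adjusted p = 0.742) for Mdm2 C462A and -0.20 (SE 0.402, limma adjusted p = 1) for p53/Mdm2 KO. The first turned to 0.14 without p53 KO replicate 1 and Mdm2 C462A replicate 2, the second to 0.06 without p53 KO replicate 1. Mdm2 C462A against p53/Mdm2 KO gave -0.24 (SE 0.44), which turned to 0.08 without Mdm2 C462A replicate 2.

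Timp3, an inhibitor that stays bound to the matrix, differed most within Mdm2 C462A, whose replicates had 10599.8 and 30679 normalized reads, the lowest and the highest values of all libraries. It had 21881 and 16039.7 in p53/Mdm2 KO and 25394, 15075 and 28964 in p53 KO, and its differences from p53 KO were -0.31 (SE 0.504) and -0.25 (SE 0.504). The value for Mdm2 C462A turned to 0.46 without its replicate 1. Mdm2 C462A against p53/Mdm2 KO gave -0.05 (SE 0.553), which turned to 0.71 without the same library and to 0.17 without p53/Mdm2 KO replicate 1. Exons of Timp3 share 1733 bases with Syn3 on the opposite strand in the GENCODE M21 annotation, and no strand setting is given in the sources used here.

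Timp4 was read in 1 library only above the limit that a count of 0 allows: p53 KO replicate 1 had 122 normalized reads and the other 6 libraries had 0.928 to 3.24. Its differences from p53 KO, -1.06 (SE 0.961) for Mdm2 C462A and -1.10 (SE 0.961) for p53/Mdm2 KO, rest on that library and were -0.00 and -0.04 without it.

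**Figure D2:**
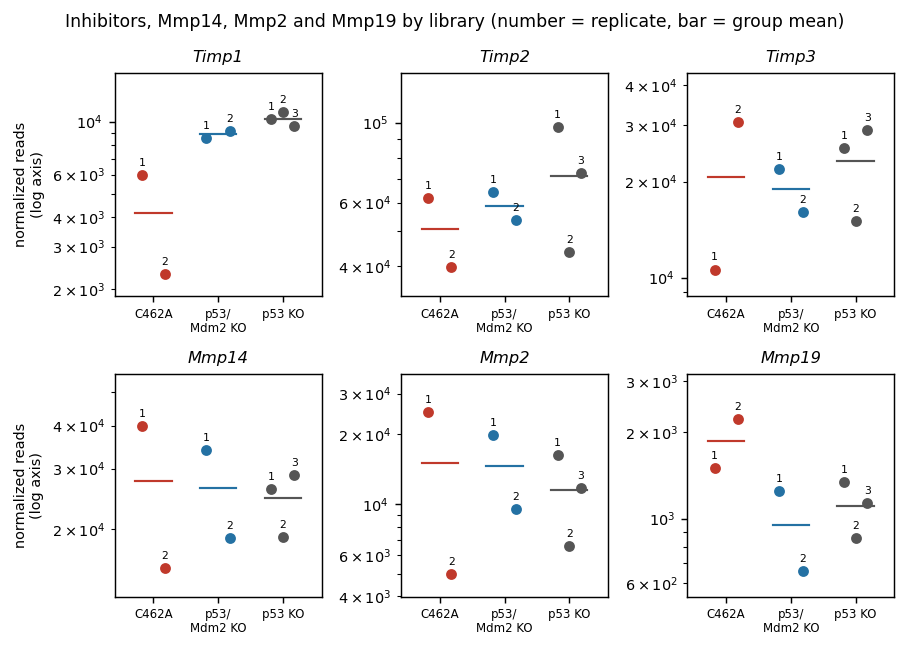
Normalized reads (log axis) of Timp1, Timp2, Timp3, Mmp14, Mmp2 and Mmp19 in each library; points are libraries, numbers are replicates and bars are group means. Timp1 is at 6007 and 2312 in Mdm2 C462A, below the 5 other libraries, whereas Timp2, Timp3, Mmp14 and Mmp2 overlap between all groups.

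Mmp14 and Mmp2 form a known activation pair, in which the membrane-anchored collagenase Mmp14 cuts the Timp2-bound precursor of the gelatinase Mmp2 at the cell surface. Mmp14 had 40005 and 15379.8 normalized reads in Mdm2 C462A, 33862 and 18915 in p53/Mdm2 KO, and 26100.1, 19040.3 and 28753 in p53 KO. Mmp2 had 25029.6 and 4969.9 in Mdm2 C462A, 19783 and 9491 in p53/Mdm2 KO, and 16248, 6576 and 11694 in p53 KO. For both genes replicate 1 of each Mdm2 genotype was high and replicate 2 low, and Mdm2 C462A held the highest and the lowest value of all libraries. Mean ± SD of Mmp14 was 27692 ± 17412 in Mdm2 C462A, 26388 ± 10569 in p53/Mdm2 KO and 24631 ± 5020.2 in p53 KO (n = 2, 2 and 3), so the means differed by less than the spread within each group.

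To set members against each other, normalized reads were divided by the length of merged exons in GENCODE M21, an annotation of another genome build than the mm9 named for these files. On that scale, reads per kilobase averaged over the 7 libraries, Timp2 stood highest (15855), followed by Timp1 (9132), Mmp14 (4364), Mmp2 (3975), Adamts1 (2749) and Timp3 (2607). The next was Adamts5 (804), then Mmp11 (602). Mmp14 and Mmp2 changed places between libraries and cannot be ordered beyond their spread. The same holds for Adamts1 and Timp3, with group means of 1416 and 2534 in Mdm2 C462A, 2318 and 2328 in p53/Mdm2 KO, and 3925 and 2842 in p53 KO for these genes in turn. Mmp2 and Mmp14 together supplied 88.2% and 56.5% of the summed Mmp reads per kilobase in Mdm2 C462A, 86.8% and 84.2% in p53/Mdm2 KO, and 84.7%, 75.5% and 79.9% in p53 KO.

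The ratio of summed Mmp to summed Timp reads per kilobase was 0.670 and 0.434 in Mdm2 C462A, 0.464 and 0.273 in p53/Mdm2 KO, and 0.274, 0.269 and 0.316 in p53 KO. Both Mdm2 C462A libraries lay above the p53 KO libraries. So did p53/Mdm2 KO replicate 1, which lay between the 2 Mdm2 C462A libraries, while p53/Mdm2 KO replicate 2 lay among the p53 KO libraries. The parts of the ratio differed between the Mdm2 C462A libraries: the Mmp sum was 16023 and 7180 reads per kilobase and the Timp sum 23917 and 16544. In p53/Mdm2 KO the Mmp sums were 13304 and 7113 and the Timp sums 28682 and 26014. In p53 KO they were 10856, 6818 and 10378 for Mmp and 39580, 25327 and 32871 for Timp. These sums are carried by a few genes and no test was made of them.

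Several Mmp genes that lie side by side had their highest values in the same library. In RefSeq's GRCm38.p6 annotation 10 Mmp genes follow one another on chromosome 9 with no other protein-coding gene between them, in the order Mmp13, Mmp12, Mmp1b, Mmp3, Mmp1a, Mmp10, Mmp8, Mmp27, Mmp20 and Mmp7. They hold the interstitial collagenases (Mmp1a, Mmp1b, Mmp8 and Mmp13), which cut fibrillar collagen, and the stromelysins (Mmp3 and Mmp10), which cut many matrix proteins and activate collagenase precursors. Inducible Mmp promoters of this kind are known to be driven by AP-1 (Fos and Jun dimers) close to a TATA box. The promoters of Mmp13, Mmp3 and Mmp10 are therefore shown. In Mdm2 C462A replicate 2, where these genes were highest, Timp1 was among the 10 tested members at their lowest. The promoter of Timp1 is shown for description only, and those of the other members lowest in that library are not shown. Each promoter shown runs from 250 bases before to 50 bases after the RefSeq start site, 5′ to 3′ on the gene's strand. Capitals mark the AP-1 letters TGACTCA or their reverse complement and the letters TATAAA.
Mmp13, chr9:7272264-7272563, plus strand, GRCm38.p6: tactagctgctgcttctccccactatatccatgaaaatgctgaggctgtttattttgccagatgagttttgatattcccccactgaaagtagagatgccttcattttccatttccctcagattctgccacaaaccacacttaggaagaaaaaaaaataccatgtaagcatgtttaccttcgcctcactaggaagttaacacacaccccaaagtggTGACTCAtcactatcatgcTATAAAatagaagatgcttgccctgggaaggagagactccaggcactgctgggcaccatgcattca
Mmp3, chr9:7445572-7445871, plus strand, GRCm38.p6: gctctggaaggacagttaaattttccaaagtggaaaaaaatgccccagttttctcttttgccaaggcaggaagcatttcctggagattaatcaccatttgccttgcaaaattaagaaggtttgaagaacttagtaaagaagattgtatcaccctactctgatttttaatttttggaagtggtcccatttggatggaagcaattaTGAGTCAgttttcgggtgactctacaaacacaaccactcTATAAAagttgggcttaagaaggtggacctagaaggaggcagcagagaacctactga
Mmp10, chr9:7502092-7502391, plus strand, GRCm38.p6: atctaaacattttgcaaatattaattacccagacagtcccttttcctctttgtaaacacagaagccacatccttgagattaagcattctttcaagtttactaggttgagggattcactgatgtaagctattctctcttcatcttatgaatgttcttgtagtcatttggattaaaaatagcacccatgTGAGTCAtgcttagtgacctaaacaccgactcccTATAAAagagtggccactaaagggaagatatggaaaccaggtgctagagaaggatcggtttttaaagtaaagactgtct
Timp1, chrX:20869916-20870215, plus strand, GRCm38.p6: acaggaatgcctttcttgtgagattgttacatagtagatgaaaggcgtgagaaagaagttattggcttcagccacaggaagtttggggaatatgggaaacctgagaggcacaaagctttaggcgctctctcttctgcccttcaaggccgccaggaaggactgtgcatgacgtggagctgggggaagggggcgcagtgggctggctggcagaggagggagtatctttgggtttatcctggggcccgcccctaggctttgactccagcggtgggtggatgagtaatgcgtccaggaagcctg

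The AP-1 letters began at position -35 in the Mmp13 promoter, at -46 in Mmp3 and at -63 in Mmp10, and TATAAA began at -16, -7 and -29 in the same genes, without overlap. The Timp1 window held neither of these exact letter runs. Variants that differ by a base were not searched, so the absence does not show that a window lacks a site. RefSeq promoter windows were found for 36 of the 51 members. AP-1 letters, searched on both strands, were in a window of 7 of the 10 chromosome 9 genes (Mmp13, Mmp12, Mmp1b, Mmp3, Mmp1a, Mmp10 and Mmp7) and in 0 of the 26 other members, against 5.2% of all 32851 windows. TATAAA, searched on the gene's strand, was in 8 of the 10 and 3 of the 26, against 8.32% of all windows. The Runx letters ACCACA were in 4 and 2 (16.8% of all windows) and the Ets letters AGGAAG in 7 and 8 (35.4%), both searched on both strands. These matches describe letters, and Mmp7, Mmp1a and Mmp1b carry them although they were hardly read or not read at all.

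Mmp13, the main interstitial collagenase of rodents, had 151 and 801 normalized reads in Mdm2 C462A, 84.4 and 16.7 in p53/Mdm2 KO, and 73.6, 15.8 and 53.9 in p53 KO. Both Mdm2 C462A libraries lay above all others, replicate 2 by far the most. The difference was 2.62 (SE 0.839, limma adjusted p = 0.437) from p53 KO and 2.65 (SE 0.919, limma adjusted p = 1) from p53/Mdm2 KO. Without Mdm2 C462A replicate 2 these were 1.49 and 1.52 (limma adjusted p = 0.999 and 1).

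Mmp10 had 55.1 and 159 normalized reads in Mdm2 C462A, 24.1 and 10.3 in p53/Mdm2 KO, and 59.1, 9.28 and 17.3 in p53 KO. Both Mdm2 C462A libraries lay above both p53/Mdm2 KO libraries, but p53 KO replicate 1 lay between them. The difference was 1.48 (SE 0.598, limma adjusted p = 0.471) from p53 KO and 1.77 (SE 0.655, limma adjusted p = 1) from p53/Mdm2 KO. Without Mdm2 C462A replicate 2 they were 0.85 and 1.14 (limma adjusted p = 0.999 and 1).

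Mmp3 had 297 and 737 normalized reads in Mdm2 C462A, 135 and 36.1 in p53/Mdm2 KO, and 556, 67.8 and 128 in p53 KO. As for Mmp10, p53 KO replicate 1 lay among the Mdm2 C462A libraries while p53/Mdm2 KO lay below both. The difference between the Mdm2 genotypes was 2.41 (SE 0.983, unadjusted p = 0.0469, limma adjusted p = 1). Mmp8, the collagenase best known from neutrophils, had 4.01 and 80.3 normalized reads in Mdm2 C462A, 3.71 and 0 in p53/Mdm2 KO, and 0, 0.928 and 0 in p53 KO. Only Mdm2 C462A replicate 2 was well above the limit that a count of 0 allows. Mmp8 passed the filter on low values through that library alone, so its fitted difference and p are not given. It is still among the members counted at an unadjusted p under 0.05 for Mdm2 C462A against p53 KO, and in the counts without overlap and above 0. Neutrophil markers were near 0 throughout: Mpo, Elane and S100a8 together had between 0.928 and 7.73 normalized reads, with 2.65 in Mdm2 C462A replicate 2, and S100a9 had none.

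Mmp27, in the same run of genes, also had its highest value, 16.8, in Mdm2 C462A replicate 2. Mmp12, the macrophage elastase, did not share the pattern, with 357 and 219 normalized reads in Mdm2 C462A, 259.8 and 285 in p53/Mdm2 KO, and 175, 242 and 275 in p53 KO. All groups overlapped for Mmp12, whose exons share 157 bases with Mmp1b on the opposite strand. Macrophage markers were present at uneven levels, with summed reads of 1411 and 424 in Mdm2 C462A, 1529 and 476 in p53/Mdm2 KO, and 538, 546 and 3086 in p53 KO. Of these, Lyz2 ranged from 6.36 to 1870.3, Ptprc from 0 to 73.3, Emr1 from 0 to 174, Csf1r from 13.2 to 325 and Cd14 from 9.09 to 147. Cd68 (57.3 to 193) and Itgam (204 to 319) were more even. Their part in the level of Mmp12 or Mmp9 was not tested.

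**Figure D3:**
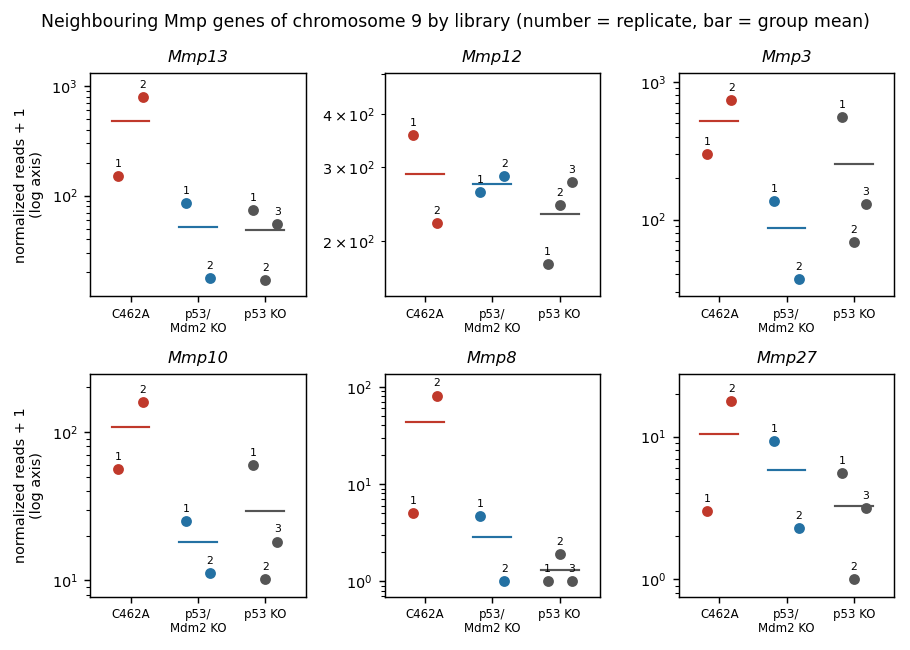
Normalized reads plus 1 (log axis) of 6 neighbouring Mmp genes of chromosome 9 in each library; points are libraries, numbers are replicates and bars are group means. Mdm2 C462A replicate 2 is the highest library for Mmp13 (801), Mmp3 (737), Mmp10 (159), Mmp8 (80.3) and Mmp27 (16.8), but not for Mmp12.

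Factors and cytokines that induce these genes gave mixed values against p53 KO, and most were lower in Mdm2 C462A than in p53/Mdm2 KO. In that second comparison 14 of 20 tested lay below 0, with a median of -0.28. Wholly lower were 8 (Fos, Fosb, Fosl1, Jun, Junb, Ets1, Etv4 and Egr1), or 40%, against 17.1% of all genes. Wholly higher were 3 (Jund, Ets2 and Etv5), or 15%, against 15.8%. Their part in the Mmp levels was not tested. Of 23 listed inducers 20 were tested, with a median difference of -0.15 for Mdm2 C462A and 0.19 for p53/Mdm2 KO from p53 KO, where all genes tested had medians of 0.01 and -0.01. The 2 with the most reads were the immediate-early factor Egr1 (1785 and 1311 normalized reads in Mdm2 C462A, 1971 and 7399 in p53/Mdm2 KO, and 26284, 4490.4 and 3106 in p53 KO) and the AP-1 subunit gene Fosl2 (4637 to 7787 over the 7 libraries). The AP-1 subunit gene Fos had 181 and 205 normalized reads in Mdm2 C462A, 308 and 740.3 in p53/Mdm2 KO, and 1157, 278 and 269 in p53 KO. Jun, which encodes its partner, had its lowest value, 1525, in Mdm2 C462A replicate 2, against 3881 to 7616 in the 6 other libraries. Ets2, an Ets factor gene, was the 1 inducer at an unadjusted p under 0.05 in any comparison. This was 5% of the tested inducers for Mdm2 C462A against p53 KO, against 10.4% of all genes. Ets2 had 1870.4 and 4807 in Mdm2 C462A, 1698 and 1239 in p53/Mdm2 KO, and 676, 1514 and 1282 in p53 KO. Its difference from p53 KO was 1.44 (SE 0.495, limma adjusted p = 0.448). The cytokines Il1a, Il1b and Tnf had at most 7.55 normalized reads in any library.

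The remaining membrane-anchored enzymes were low or moderate. Mmp15, an Mmp14 relative, had 62.1 and 47.6 normalized reads in Mdm2 C462A, 46.4 and 23.2 in p53/Mdm2 KO, and 77.3, 75.2 and 96.0 in p53 KO. All 4 libraries of the Mdm2 genotypes lay below the 3 p53 KO libraries. The difference was -0.97 (SE 0.299, unadjusted p = 0.0157, limma adjusted p = 1) for p53/Mdm2 KO, and -0.64 without its replicate 2. Mmp17, a membrane-anchored enzyme attached through a lipid anchor, had 231 and 280.5 in Mdm2 C462A, 257 and 192 in p53/Mdm2 KO, and 115, 915 and 1202 in p53 KO. Here p53 KO replicates 2 and 3 stood far above all others while replicate 1 was the lowest library. Mmp16 ranged from 173 in p53 KO replicate 1 to 664 in p53/Mdm2 KO replicate 2, Mmp24 from 110.2 in Mdm2 C462A replicate 2 to 328 in p53 KO replicate 1, and Mmp25 from 5.45 to 14.2.

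Mmp9, the second gelatinase, was also highest in p53 KO replicates 2 and 3, with 31.1 and 24.7 normalized reads in Mdm2 C462A, 22.3 and 14.2 in p53/Mdm2 KO, and 14.5, 105 and 133 in p53 KO. Mmp19, a secreted Mmp with a broad range of substrates, had 1492 and 2217 in Mdm2 C462A, 1248 and 657 in p53/Mdm2 KO, and 1342, 859 and 1130.4 in p53 KO. Both Mdm2 C462A libraries were above all others, and the difference from p53/Mdm2 KO was 0.99 (SE 0.382, unadjusted p = 0.0385, limma adjusted p = 1). It was 0.54 without p53/Mdm2 KO replicate 2, and exons of Mmp19 share 789 bases with Tmem198b on the opposite strand. Mmp11, a stromal enzyme that leaves the secretory pathway already activated, was even, between 1290.1 and 2096. Mmp28 ranged from 67.0 to 208 and Mmp23 from 214 in p53 KO replicate 1 to 1661 in p53 KO replicate 3.

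Among the Adamts proteoglycanases, which cut aggrecan and versican, Adamts1 was the most abundant per kilobase. It had 10464 and 4551 normalized reads in Mdm2 C462A, 8962 and 15615 in p53/Mdm2 KO, and 29895, 14378 and 18158 in p53 KO. Mdm2 C462A lay below p53 KO without overlap, and p53/Mdm2 KO overlapped both. The difference from p53 KO was -1.52 for Mdm2 C462A (SE 0.481, unadjusted p = 0.0178, limma adjusted p = 0.437), and -0.92 without its replicate 2 (limma adjusted p = 0.999).

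Adamts5, the neighbour of Adamts1 on chromosome 16 and the main aggrecanase of mouse cartilage, had 3565 and 8039 normalized reads in Mdm2 C462A, 4898 and 12866 in p53/Mdm2 KO, and 9307, 11342 and 10742 in p53 KO. The Mdm2 C462A values again lay below p53 KO without overlap, while p53/Mdm2 KO held a value on each side. In both Mdm2 genotypes the Adamts5 value was higher in replicate 2, as was Adamts1 in p53/Mdm2 KO but not in Mdm2 C462A. Adamts20, a relative of Adamts9 needed for pigment cell development, had 123 and 136 in Mdm2 C462A, 93.7 and 32.2 in p53/Mdm2 KO, and 436, 91.0 and 224 in p53 KO. Its difference was -1.61 for p53/Mdm2 KO against p53 KO (SE 0.639, unadjusted p = 0.0427, limma adjusted p = 1), with an overlap of 1 p53 KO library. It was -1.03 without p53/Mdm2 KO replicate 2.

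Adamts9 had 1875 and 3067 normalized reads in Mdm2 C462A, 1680.3 and 724 in p53/Mdm2 KO, and 2525, 1532 and 3610.0 in p53 KO. Mdm2 C462A lay above p53/Mdm2 KO without overlap, and p53 KO spanned most of the range. Exons of Adamts9 share 1381 bases with A730049H05Rik on the opposite strand. Adamts4 ranged from 320.2 in Mdm2 C462A replicate 2 to 922 in p53 KO replicate 3. Adamts15 was lowest in p53/Mdm2 KO replicate 2 and highest, at 183, in p53 KO replicate 3, and Adamts8, its neighbour on chromosome 9, from 0 to 61.2.

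The procollagen N-proteinases trim the amino-terminal propeptide from fibrillar procollagens. Adamts2, the one mutated in dermatosparaxis, had 2084 and 1803 normalized reads in Mdm2 C462A, 2634 and 473 in p53/Mdm2 KO, and 3537, 921 and 1913 in p53 KO, so that the spread within groups covered the differences between them. Adamts14 ranged from 779.8 to 1664 and Adamts3 from 42.5 to 221.

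Adamts12, which cuts cartilage oligomeric matrix protein together with its relative Adamts7, split the libraries into high and low. It had 722 and 1030.1 normalized reads in Mdm2 C462A, 665 and 2524 in p53/Mdm2 KO, and 813, 4012 and 4737 in p53 KO. The high libraries were p53 KO replicates 2 and 3 and p53/Mdm2 KO replicate 2, so the split did not follow genotype. Adamts7 ranged from 349 to 1121 and Adamts13, the protease of von Willebrand factor, from 212 to 467, with both p53/Mdm2 KO libraries (455 and 303) above the 3 p53 KO libraries (212, 242 and 286).

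Adamts10, a microfibril-associated member, had 2041 and 1533 normalized reads in Mdm2 C462A, 1966 and 2224 in p53/Mdm2 KO, and 2519, 2461 and 2534 in p53 KO. All 4 libraries of the Mdm2 genotypes lay below the p53 KO libraries. The difference was -0.50 for Mdm2 C462A (SE 0.177, unadjusted p = 0.0288, limma adjusted p = 0.452), and -0.29 without its replicate 2. Adamts6, its close relative, had 1761 and 759 in Mdm2 C462A, 1495 and 1315 in p53/Mdm2 KO, and 175, 1678 and 1816 in p53 KO, where replicate 1 stood apart from every other library. Adamts16, Adamts17 and Adamts18 had between 3.86 and 96.0 normalized reads.

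Of the Adamts-like genes, Adamtsl5 was higher in both Mdm2 genotypes in these libraries, without passing the adjusted threshold. Adamtsl5, which encodes a microfibril-binding protein, had 2244 and 1970.3 normalized reads in Mdm2 C462A, 2311 and 1959.6 in p53/Mdm2 KO, and 1508, 1391 and 1298 in p53 KO. The 4 libraries of the Mdm2 genotypes all lay above the 3 p53 KO libraries, and replicates were close in each group. Mean ± SD was 2107 ± 194 in Mdm2 C462A, 2135 ± 249 in p53/Mdm2 KO and 1399 ± 105 in p53 KO (n = 2, 2 and 3). The differences were 0.58 (SE 0.167, unadjusted p = 0.0115, limma adjusted p = 0.437) for Mdm2 C462A and 0.60 (SE 0.167, unadjusted p = 0.0101, limma adjusted p = 1) for p53/Mdm2 KO, both against the same p53 KO libraries. Leaving out any 1 library kept the first between 0.49 and 0.68 and the second between 0.48 and 0.72.

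The 3 other tested Adamts-like genes were set apart by single p53 KO libraries. Adamtsl4, a microfibril protein needed for lens suspension, had 987 and 372 normalized reads in Mdm2 C462A, 891 and 950.2 in p53/Mdm2 KO, and 4912, 807 and 1331 in p53 KO. Adamtsl3 had 1618 and 2239 in Mdm2 C462A, 1591 and 1693 in p53/Mdm2 KO, and 5615, 1875 and 1977 in p53 KO. Both were high in p53 KO replicate 1. Adamtsl1 was instead high in p53 KO replicate 3 (2600.5), against 259 to 793 in the other 6 libraries.

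**Figure D4:**
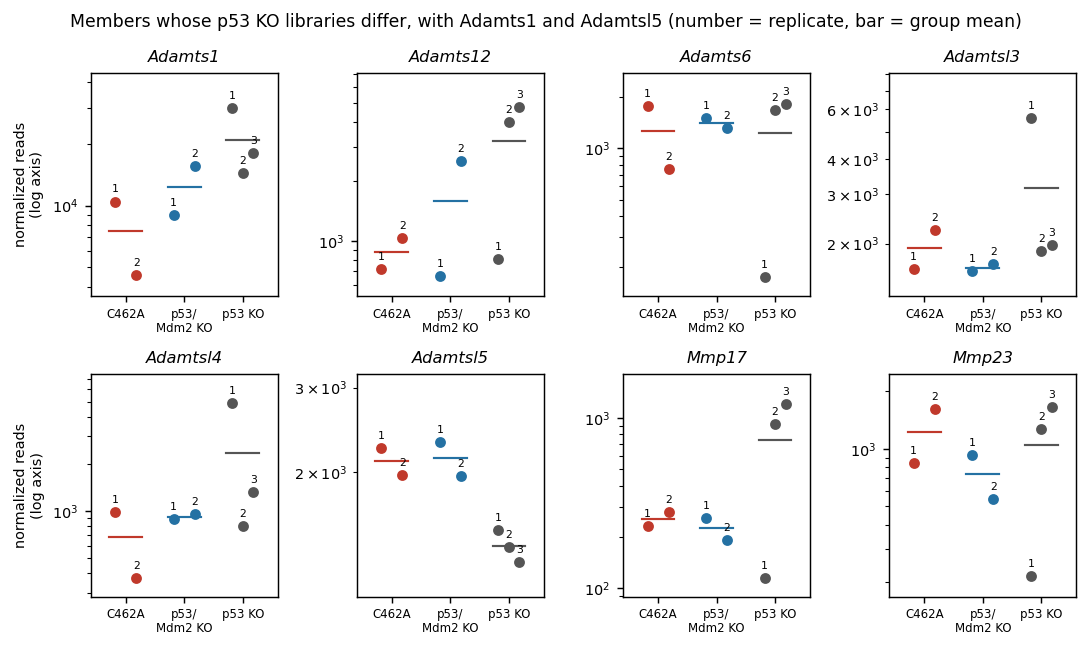
Normalized reads (log axis) of 8 members in each library; points are libraries, numbers are replicates and bars are group means. In p53 KO, replicate 1 lies apart from replicates 2 and 3 for Adamts12, Adamts6, Adamtsl3, Adamtsl4, Mmp17 and Mmp23, while Adamtsl5 is tight in all groups and separates both Mdm2 genotypes from p53 KO.

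Over the 43 members tested, a library lay over 2-fold above all 6 others for 3 genes in Mdm2 C462A replicate 2 (Mmp8, Mmp13 and Mmp10), for 3 in p53 KO replicate 1 (Adamtsl3, Adamtsl4 and Timp4) and for 2 in p53 KO replicate 3 (Adamts17 and Adamtsl1). Of all genes tested, 2.75%, 3.71% and 0.485% did so in those libraries, in that order. A library lay more than 2-fold below all 6 others for 4 genes in p53/Mdm2 KO replicate 2 (Mmp15, Adamts9, Adamts20 and Adamts16), for 4 in p53 KO replicate 1 (Mmp16, Mmp23, Adamts8 and Adamts6) and for 2 in Mdm2 C462A replicate 2 (Adamtsl4 and Timp1). Of all genes tested, 1.62%, 7.7% and 2.02% did so in those libraries, in that order. The median deviation of the members from the p53 KO mean was 0.09 and -0.32 in Mdm2 C462A, -0.06 and -0.5 in p53/Mdm2 KO, and -0.08, -0.13 and 0.21 in p53 KO. For all genes tested these medians lay between -0.01 and 0.01 in every library. The library with the lowest median, p53/Mdm2 KO replicate 2, was the lowest of all 7 for 13 of the 43 members, and the one with the highest median, p53 KO replicate 3, was the highest of all 7 for 13.

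For p53/Mdm2 KO against p53 KO, 33 of the 43 members lay below 0, with a median difference of -0.26, where 51.8% of all genes lay below 0 and their median was -0.01. The other 10 lay above 0, as did 48.2% of all genes. Without p53/Mdm2 KO replicate 2 this count was 23 and the median -0.06. By family the medians were -0.13 for Mmp, -0.42 for Adamts, -0.82 for Adamtsl and -0.23 for Timp genes. For Mdm2 C462A against p53 KO, 23 of 43 lay below 0 and 20 above (median -0.03), where 51.2% of all genes lay above 0 (median 0.01), and the family medians differed in sign: 0.28 for Mmp, -0.25 for Adamts, -0.49 for Adamtsl and -0.75 for Timp genes. Of the 17 Mmp genes tested 13 lay above 0, among them Mmp8, and of the 4 Timp genes all lay below 0. All 4 Timp genes also lay below 0 for p53/Mdm2 KO against p53 KO. Mmp8 and Timp4 each passed the filter through 1 library, which also set much of the size of their differences. Without that library Mmp8 stayed above 0, on 4.01 normalized reads in Mdm2 C462A replicate 1, and Timp4 came to -0.00. For Mdm2 C462A against p53 KO, Timp2, Timp3 and Timp4 reached 0.14, 0.46 and 0.02 under other settings or with 1 library left out. Only Timp1 stayed below 0 throughout. For Mdm2 C462A against p53/Mdm2 KO, 25 of 43 lay above 0, with a median of 0.18, where 51.7% of all genes did so. With 1 library left out, this median ran from 0.02 without Mdm2 C462A replicate 1 to 0.39 without p53/Mdm2 KO replicate 1, and the members below 0, 18 in all libraries, were 10 without Mdm2 C462A replicate 2. The median for Mdm2 C462A against p53 KO ran from -0.32 without Mdm2 C462A replicate 1 to 0.18 without p53 KO replicate 3. The filter asked for a mean over all libraries, so these medians describe the tested members and were not tested as a set.

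Counts of members whose libraries did not overlap between groups were near or below the share of all genes in both comparisons with p53 KO. Mdm2 C462A lay wholly above p53 KO for 4 of 43 members (Mmp8, Mmp13, Mmp19 and Adamtsl5; 9.3%, against 14.1% of all genes) and wholly below for 6 (Mmp15, Adamts1, Adamts5, Adamts10, Adamts18 and Timp1; 14%, against 14.4%). For p53/Mdm2 KO these counts were 2 above (Adamts13 and Adamtsl5; 4.65%, against 8.99%) and 4 below (Mmp15, Adamts10, Adamtsl3 and Timp1; 9.3%, against 9.2%). Mdm2 C462A lay wholly above p53/Mdm2 KO for 12 members (27.9%, against 15.8% of all genes) and wholly below for 2 (4.65%, against 17.1%). The 12 were Mmp3, Mmp8, Mmp10 and Mmp13 of chromosome 9 with Mmp9, Mmp15, Mmp19, Mmp28, Adamts9, Adamts14, Adamts17 and Adamts20, and the 2 were Timp1 and Adamts18.

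**Figure D5:**
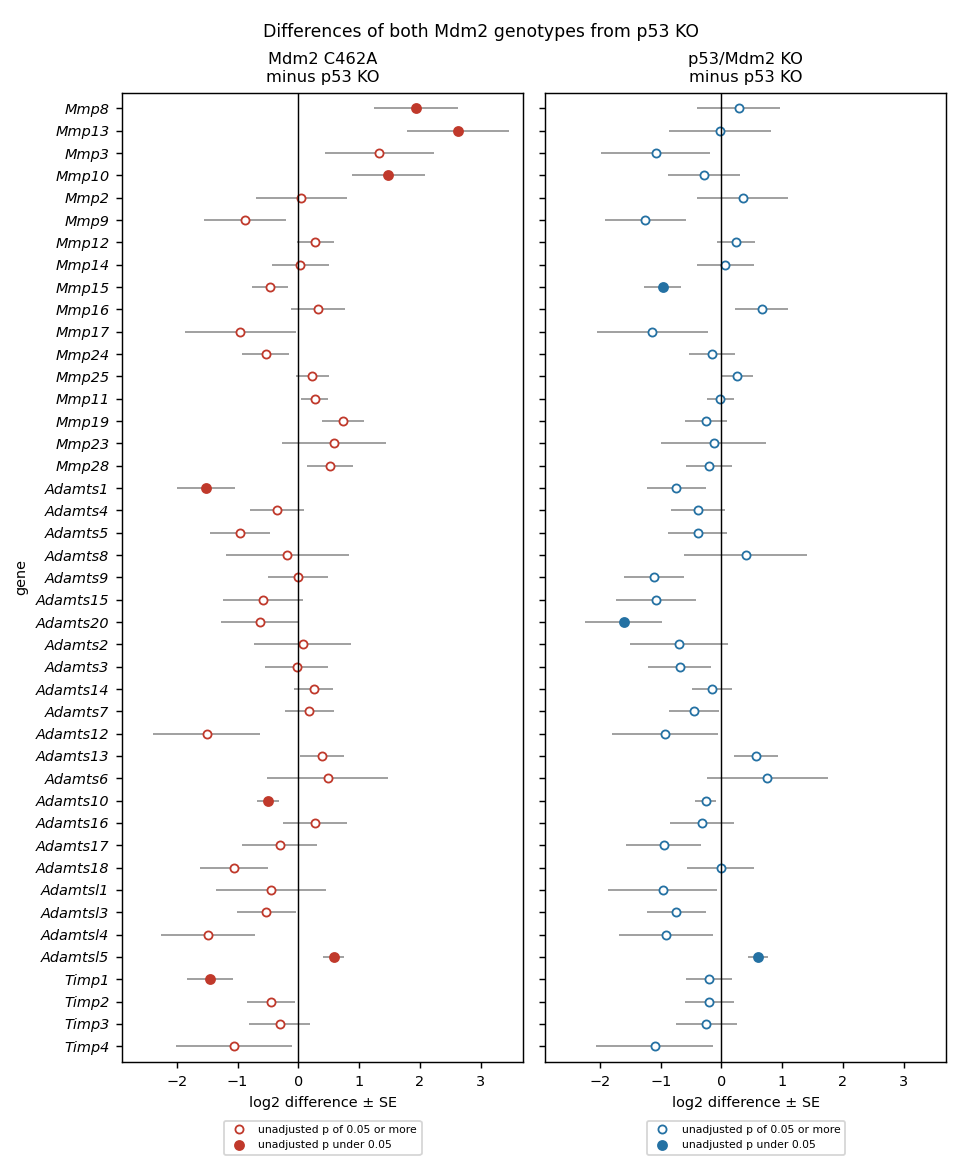
Difference from p53 KO on the deposited log2-like scale with its SE (limma) for the 43 members tested, in Mdm2 C462A (left) and p53/Mdm2 KO (right); filled points have an unadjusted p under 0.05. In Mdm2 C462A, Mmp13 (2.62) is furthest above 0, and Adamts1 (-1.52), Adamts12 (-1.51), Adamtsl4 (-1.49) and Timp1 (-1.45) are furthest below. Adamtsl5 (0.58 and 0.60) is filled in both, and no point passes the adjusted threshold.

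The genes that act on these proteases were read from lists chosen with earlier results of these data known. The genes named here encode activators, inhibitors and binding partners of the proteases, and none passed the adjusted threshold. Plau, the urokinase gene, whose product starts much Mmp activation, had 2866 and 542 normalized reads in Mdm2 C462A, 4985 and 6275 in p53/Mdm2 KO, and 1957, 5499 and 4422 in p53 KO. Both Mdm2 C462A libraries lay below both p53/Mdm2 KO libraries, with a difference of -2.14 (SE 0.808, limma adjusted p = 1). Thbs1, which encodes a matricellular protein that binds Mmp2 and Mmp9, had 64698 and 33015 normalized reads in Mdm2 C462A, 122192 and 285876 in p53/Mdm2 KO, and 214699, 344960.1 and 357812 in p53 KO. Its differences were -2.69 (SE 0.526, limma adjusted p = 0.437) from p53 KO and -2.02 (SE 0.576, limma adjusted p = 1) from p53/Mdm2 KO. Lrp1, the endocytic receptor that clears several Mmp and Adamts proteins, ranged from 42238 in p53 KO replicate 1 to 104582 in p53 KO replicate 2. Furin, which activates Mmp14 precursors, had 4340.2 and 1742 normalized reads in Mdm2 C462A, 4094 and 4075 in p53/Mdm2 KO, and 3476, 6790.4 and 5102 in p53 KO. Reck, a membrane-anchored inhibitor of Mmp activity, had 1225 and 496 in Mdm2 C462A, 1146 and 794 in p53/Mdm2 KO, and 2505, 857 and 1943 in p53 KO.

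Among 19 tested matrix substrates, 1 (5.26%, against 10.4% of all genes) had an unadjusted p under 0.05 for Mdm2 C462A against p53 KO. This was Eln, the elastin gene (-2.15, SE 0.582, limma adjusted p = 0.437). Vcan, the versican substrate of Adamts1 and Adamts5, had 16708 and 6969 normalized reads in Mdm2 C462A, 16305 and 11290.1 in p53/Mdm2 KO, and 1891, 24205 and 16848 in p53 KO. Acan, the aggrecan gene, had at most 111 in 6 libraries and 701 in p53 KO replicate 1. For p53/Mdm2 KO against p53 KO, 3 of the 19 substrates (15.8%, against 3% of all genes) had an unadjusted p under 0.05. All were lower (against 1.49% of all genes): Eln (-3.17, SE 0.582), Fbn2 (-1.54, SE 0.516) and Col3a1 (-1.41, SE 0.555), each with a limma adjusted p = 1. Between the Mdm2 genotypes Col2a1 was the 1 such gene (-3.26, SE 1.22, limma adjusted p = 1), or 5.26% against 2.98% of all genes. Of the 9 Adam sheddases, relatives that cut membrane proteins, 0 had an unadjusted p under 0.05 in any comparison. Of all genes 10.4% did for Mdm2 C462A and 3% for p53/Mdm2 KO against p53 KO, and 2.98% between the Mdm2 genotypes. The 2 with the most reads were Adam9, from 11275 to 23392 normalized reads, and Adam10, which cuts Notch and cadherins, from 7249 to 12793, both lowest in p53 KO replicate 1.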

How the data were processed

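Per the labels' protocols, TruSeq libraries of total RNA from 7 fibroblast samples were read once over 50 bp and demultiplexed with CASAVA 1.8.2. The submitters' processing notes also name Bowtie2 2.1.0, DESeq 1.14.0 and the mm9 build, with no role. How reads were counted, on which annotation and with or without strand, is not given in the sources used here. The deposited table holds variance-stabilized values on a log2 scale, 1 per gene and sample. Their common minimum, 3.36, marks genes without reads. Inverting the transformation from that value gave normalized reads, of which 100% above 0 were whole multiples of 1 step per sample within 0.05.

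Groups came from the sample titles. Limma 3.58.1 (R 4.3.3) was fitted to the deposited values of all 7 samples with group means and a mean-variance trend, for genes with a mean of at least 10 normalized reads. P-values were two-sided and Benjamini-Hochberg adjusted. The fit was checked on simulated data. Alternatives covered scaling, voom, pseudocount, filter, trend, sample weights, a replicate block and left-out libraries. Differences were printed for members at an unadjusted p under 0.05, but not for Mmp8, which passed the filter through 1 library. They were also printed for members differing by 2 or more where the higher group averaged 100 normalized reads or more. Timp genes were printed as well, although Timp4 also passed the filter through 1 library. Some other values were given per library. From the lists, genes at an unadjusted p under 0.05 were named, except 1 that is not reported here, otherwise the 2 with the most reads, and Fos, Jun, the cytokines, Furin, Reck, Vcan and Acan were added after their values were seen. Members and lists were chosen with earlier results of these data known. Promoter windows are RefSeq's, of GRCm38.p6.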

Additional observations from a re-analysis of the deposited data

How the results depend on the processing

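No member passed limma's adjusted threshold under any of the 11 alternative settings or when any 1 library was left out. The count of all genes called was 0 throughout, except 1 for p53/Mdm2 KO against p53 KO without both outlying libraries (p53 KO replicate 1 and Mdm2 C462A replicate 2). For Mdm2 C462A against p53 KO, members at an unadjusted p under 0.05 numbered 7, with 13 under sample weights, 4 with a replicate block, and 3 to 11 when 1 library was left out. For p53/Mdm2 KO against p53 KO they numbered 3, with 6 under sample weights, 9 without both outlying libraries, 2 with a replicate block, and 1 to 7 when 1 library was left out. Between the Mdm2 genotypes they numbered 5, with 1 under the replicate block, 3 with only the groups compared, and 0 to 7 when 1 library was left out. The number of all genes at that threshold moved as well under these settings, so the changes are not particular to the members. The causes were not tested.

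Among the printed differences of single genes, only those of Timp genes reversed. Without both outlying libraries Timp2 was 0.14 and Timp4 0.02 for Mdm2 C462A against p53 KO, Timp2 was 0.08 for Mdm2 C462A against p53/Mdm2 KO and 0.06 for p53/Mdm2 KO against p53 KO. Sample weights gave 0.10 for Timp2 in p53/Mdm2 KO against p53 KO. With 1 library left out, the ranges that crossed 0 were -0.52 to 0.06 for Timp2 in p53/Mdm2 KO against p53 KO, -1.07 to 0.46 for Timp3 in Mdm2 C462A against p53 KO, and -0.56 to 0.08, -0.82 to 0.71 and -0.10 to 0.18 for Timp2, Timp3 and Timp4 in Mdm2 C462A against p53/Mdm2 KO. The member median for Mdm2 C462A against p53 KO, -0.03, was 0.01 with voom and 0.18 with the replicate block. Without Mdm2 C462A replicate 2, Plau was -0.96 and Col2a1 -1.78 between the Mdm2 genotypes, and Ets2 was 0.76 from p53 KO. Without p53/Mdm2 KO replicate 2, Col3a1 was -0.53 from p53 KO. The filter at a mean of 50 left out Mmp8, Mmp10 and Timp4, which have no value under it. The labels do not say whether replicate numbers pair the samples. Deviations of same-numbered libraries correlated between -0.16 and 0.2 across genes. In groups of 2 libraries these values mirror those of unlike numbers, and each comparison shares only 2 numbers, so they cannot decide it. Few reads limit Mmp8, Mmp25, Adamts16 and Timp4.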
